A study of Mus musculus with 6 samples.

Results

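Genes of megakaryocytes, platelets and blood coagulation were compared between hematopoietic cells of wild-type (WT) mice and of mice that carry the NUP98-HOXD13 (NHD13) fusion. The set holds 32 genes of the 17523 in the deposited count table, chosen by symbol for platelet granule contents, platelet surface receptors, thromboxane synthesis and coagulation, with the integrins left out, and all 32 symbols had a row. Marrow of C57BL/6 mice was sorted by FACS, and total RNA of the sorted cells gave 3 WT and 3 NHD13 libraries. The series calls the cells hematopoietic stem cells (HSCs). The sources used here do not give the sort markers, the age, sex or number of the animals, or the promoter behind the fusion. NHD13 mice serve to study myelodysplastic syndrome, in which marrow output fails and platelet numbers can drop. Nothing in the labels says that the libraries came from separate animals, so the p-values measure only the spread between these libraries.

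Megakaryocytes are the large marrow cells that shed platelets. They build the surface receptors by which platelets sense collagen, von Willebrand factor, thrombin and ADP, and they fill alpha and dense granules with chemokines, adhesive proteins and clotting factors. Part of this programme is already transcribed in stem cells, and several of its genes, such as those of factor XIII A and thromboxane synthase, are also active in monocytes, granulocytes or mast cells.

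Total counts ran from 12541538 to 14388772 per library, and a floor of 3 counts corresponded to 0.208 to 0.239 CPM (counts scaled for library size), for counting error only. The row of the fusion held 0 counts in every WT library and 185, 179 and 167 counts in NHD13 replicates 1, 2 and 3. Of 10 HSC markers, most of the signal was Kit, with means of 254 CPM (WT) and 227 CPM (NHD13), whereas Fgd5 had 4 counts in each group and Procr 14 in WT and 7 in NHD13. The 10 summed to 287 to 310 CPM in WT and 249 to 269 CPM in NHD13, and of 8 tested 1 rose and 3 fell. Fgd5 and Procr, which mark long-term HSCs, were thus near absent from cells labelled as HSCs. Summed markers of maturing neutrophils, by contrast, reached 32813 to 50673 CPM in WT and 22378 to 31076 CPM in NHD13. NHD13 replicate 1 stood apart from the other NHD13 libraries, at 28.2 on the second principal component against -9.44 and -14.1. The Y-linked genes Ddx3y, Eif2s3y, Kdm5d and Uty summed to 109 to 194 CPM in WT and 177 to 280 CPM in NHD13, and Xist was at 467 to 1081 CPM in WT but at 2.52 and 1.95 CPM in NHD13 replicates 1 and 2 and 687 CPM in replicate 3. All WT libraries and NHD13 replicate 3 thus held both Xist and Y-linked RNA. NHD13 replicates 1 and 2 held Y-linked RNA with little Xist. NHD13 replicate 3 lay within the WT range for both. These shifts move with the comparison only in part, and their part in the results was not tested beyond the fits named beside them.

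In NHD13, 9 members fell and 2 rose among the 28 that could be tested, while the other 17 missed the threshold (quasi-likelihood test of edgeR, Benjamini-Hochberg adjusted p under 0.05 over all genes). Over all 12013 genes tested, 15.3% were lower and 15.0% higher. The 11 members past the threshold were 39.3% of those tested, against 30.3% of all genes. Called at least 2-fold lower were 6 of the 28 tested members, and 680 of the 12013 genes tested (5.66%). The 6 include Mmrn1, Mylk and Gucy1a3, which passed the low-count filter through the WT libraries. The 9 lower members were F5, Mmrn1, F13a1, Mylk, Gucy1a3, Tbxas1, Plek, F2rl3 and Cd9, and the 2 higher ones were Pf4 and F2r. The members' median log2 change was -0.36 and that of all genes 0.00, with absolute medians of 0.59 and 0.22. The libraries of the groups did not overlap for 13 of the 28 tested members, and for 46.1% of all tested genes, so by this measure the members lay near the background. Together the 32 genes took 0.130% to 0.143% of the counts in WT and 0.0719% to 0.0941% in NHD13. F13a1, with means of 585 CPM in WT and 198 CPM in NHD13, made up the largest part of this drop, so the share does not describe the set as a whole. Bulk RNA cannot tell fewer cells of a type from less RNA per cell, and this holds for every value given here.

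The low-count filter shaped what could be tested. Gp6, P2ry12, Tubb1 and Gnaz were too low in both groups. Mmrn1, Mylk and F7 passed it through the WT libraries, with 1 NHD13 library past the minimum. A fall could thus be seen for them more readily than a rise. Gucy1a3 had 0 NHD13 libraries past the minimum. It was tested only because of its WT level, so only a fall could be called, and it counts among the 9 that fell. Ppbp had all 3 NHD13 libraries and 1 WT library past the minimum.

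**Figure D1:**
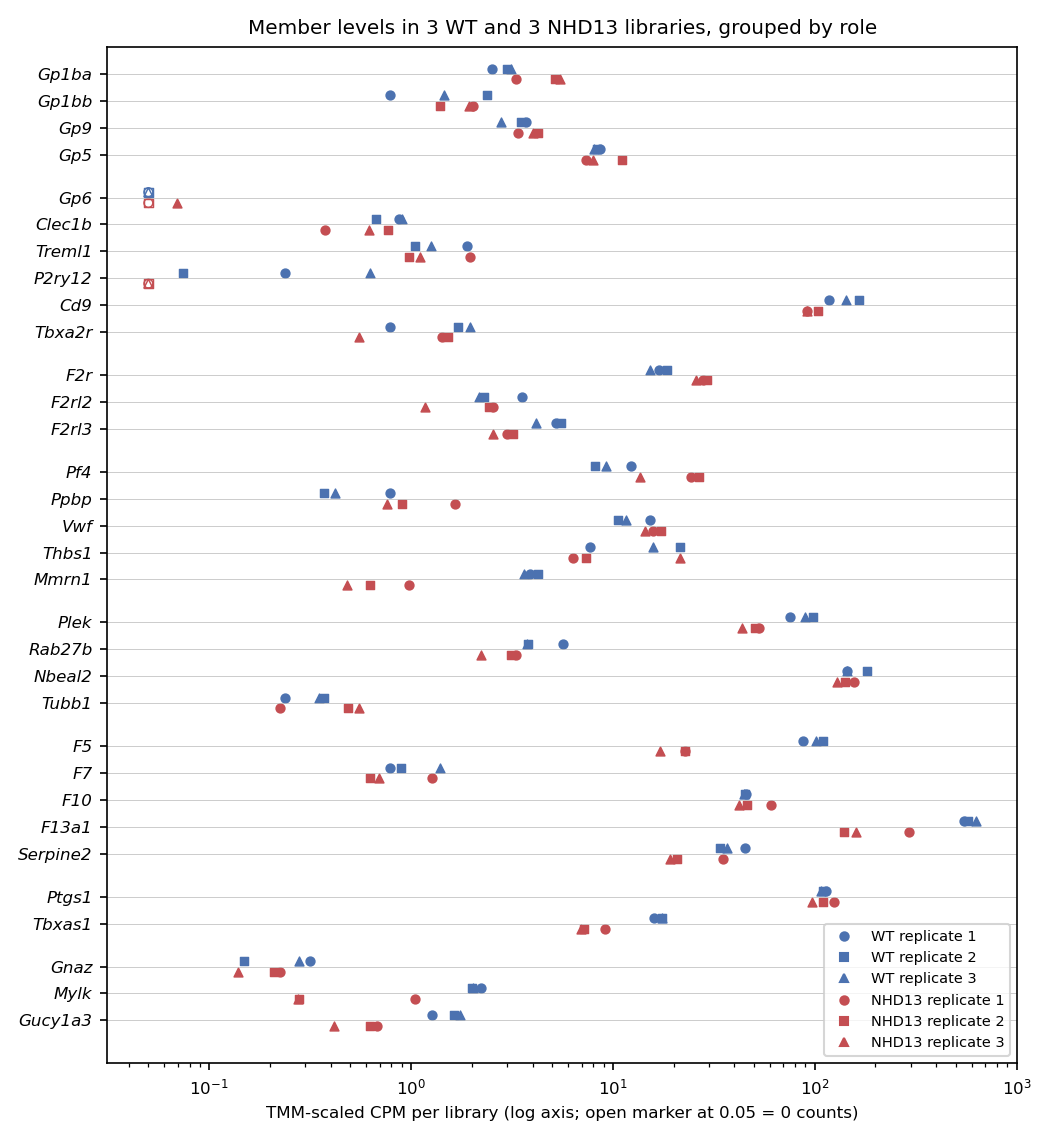
Level of each of the 32 members in each library, as CPM on a log axis, with WT in blue, NHD13 in red and a marker shape for each replicate number. F5, F13a1 and Mmrn1 show the groups wide apart, those of Gp9, Gp5 and Ptgs1 overlap, and open markers stand for 0 counts.

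**Figure D2:**
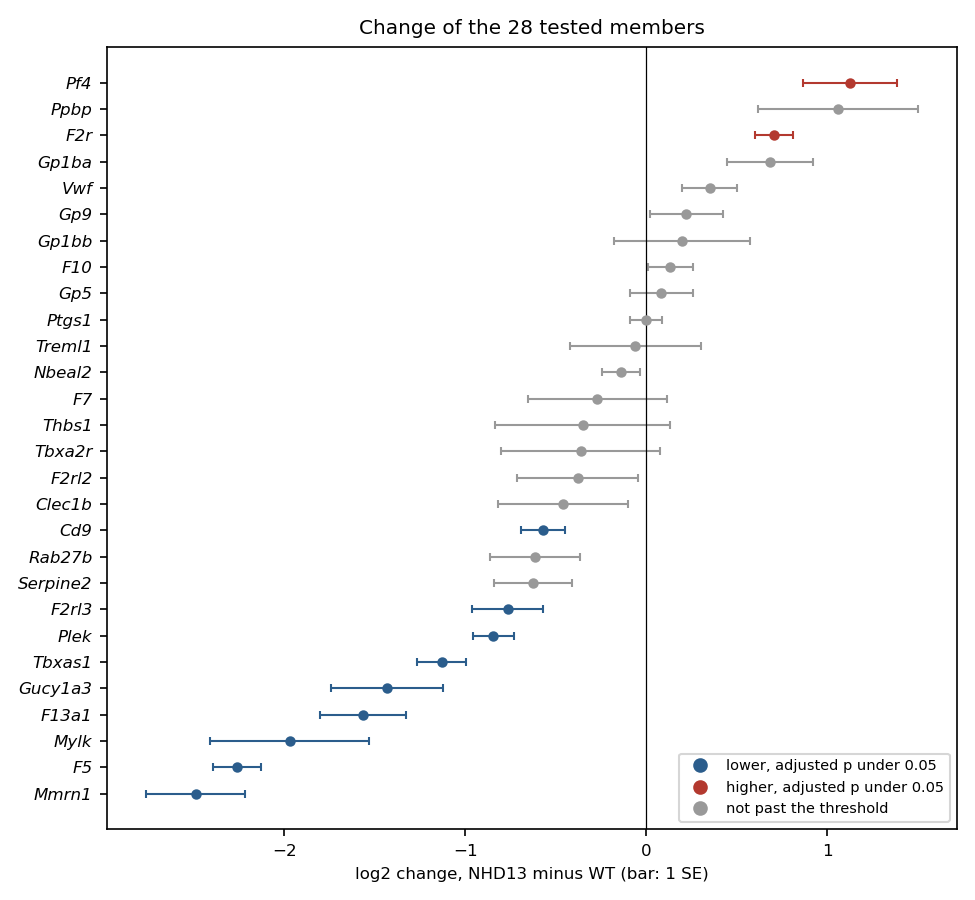
Log2 change (NHD13 minus WT) of the 28 tested members with 1 standard error, ordered by size and coloured by the test. Estimates ran from -2.49 for Mmrn1 to 1.13 for Pf4, and 9 members were past the threshold as lower and 2 as higher.

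Among the coagulation genes, F5 and F13a1 fell and F7, F10 and Serpine2 did not pass the threshold. F5 encodes factor V, the cofactor that factor Xa needs to turn prothrombin into thrombin, and platelets carry a share of it in their alpha granules. Its gene spans chromosome 1, 164151838 to 164220277 (mm10, plus strand). F5 was at 87.4, 110 and 102 CPM in WT replicates 1 to 3 and at 22.7, 22.8 and 17.1 CPM in NHD13 replicates 1 to 3. All NHD13 libraries were thus well below all WT libraries. The mean went from 99.8 CPM ± 11.6 to 20.9 CPM ± 3.29 (SD, n = 3 each), which was 4.79-fold lower (log2 -2.26, SE 0.13, edgeR adjusted p = 5.21e-05). F5 passed the threshold in all 16 other settings, with log2 changes from -2.41 to -2.14.

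F13a1, for the A subunit of factor XIII, the transglutaminase that cross-links fibrin, was the most abundant member in WT. It lies on chromosome 13, 36867178 to 37050244. The libraries held 551, 573 and 631 CPM in WT and 292, 140 and 161 CPM in NHD13, so that NHD13 replicate 1 lay between the WT libraries and the other NHD13 libraries. The fall was 2.96-fold, from a mean of 585 CPM ± 41.1 down to 198 CPM ± 82.5 (log2 -1.56, SE 0.24, adjusted p = 0.00307 by edgeR). Monocytes and their precursors also express this gene. The 10 monocyte and macrophage markers summed to 280 to 391 CPM in WT and 90.9 to 121 CPM in NHD13, and 4 of the 6 that could be tested fell (Csf1r, Ccr2, Cx3cr1 and Cd68). None of the 10 was at 0 in both groups, C1qa, C1qb and C1qc had between 3 and 11 counts in each group, and the part of these cells in the fall of F13a1 was not tested.

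F10, for factor X, lay at 45.5, 45.3 and 44.7 CPM in WT and at 60.5, 46.2 and 42.0 CPM in NHD13, where replicate 1 was high and the groups overlapped (log2 0.13, SE 0.13, adjusted p = 0.446 by edgeR). Its neighbour on chromosome 8, F7, for factor VII, was near the detection limit at 0.791 to 1.39 CPM in WT and 0.626 to 1.28 CPM in NHD13. Neither value shows that the gene did not change, and the changes of F10 and F7 were not tested against those of F5 or F13a1. Serpine2, for protease nexin-1, an inhibitor of thrombin and of plasminogen activators, had means of 38.5 CPM ± 5.77 and 25.0 CPM ± 8.64 (log2 -0.63, SE 0.22, adjusted p = 0.0569 by edgeR). Without NHD13 replicate 1, which at 35.0 CPM lay within the WT range of 33.9 to 45.0 CPM, it passed as lower (adjusted p = 7.57e-05 by edgeR). In that fit 48.7% of all tested genes passed.

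The stretch upstream of the start site is shown for the members on which these comparisons turn, since megakaryocyte promoters are known for pairing sites of GATA and of ETS factors. Each sequence is the 250 bases before the annotated start (RefSeq, GRCm38.p6, which has the coordinates of mm10), read 5′ to 3′ on the gene's strand. Capitals mark GATAA for GATA factors, GGAAG for ETS factors and TGATTNAT for PBX with HOX, each on either strand.
F5 (chr1:164151585-164151834, plus strand): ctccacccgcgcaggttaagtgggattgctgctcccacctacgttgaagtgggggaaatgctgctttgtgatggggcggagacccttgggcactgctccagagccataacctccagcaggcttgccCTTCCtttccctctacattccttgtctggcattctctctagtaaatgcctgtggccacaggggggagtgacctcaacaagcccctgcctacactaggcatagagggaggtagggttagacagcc
Mmrn1 (chr6:60944067-60944316, plus strand): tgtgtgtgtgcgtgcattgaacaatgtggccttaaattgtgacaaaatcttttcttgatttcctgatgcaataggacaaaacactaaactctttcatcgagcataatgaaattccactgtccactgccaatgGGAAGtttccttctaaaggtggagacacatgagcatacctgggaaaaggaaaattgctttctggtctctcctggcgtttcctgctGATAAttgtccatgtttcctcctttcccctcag
F13a1, the upstream one of 2 annotated starts (chr13:37050245-37050494, minus strand): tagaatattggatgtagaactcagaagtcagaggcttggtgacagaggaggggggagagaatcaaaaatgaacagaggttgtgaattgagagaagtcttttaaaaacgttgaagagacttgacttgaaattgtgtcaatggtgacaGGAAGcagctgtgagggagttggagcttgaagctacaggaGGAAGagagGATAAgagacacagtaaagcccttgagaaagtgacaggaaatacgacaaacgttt
Pf4 (chr5:90772185-90772434, plus strand): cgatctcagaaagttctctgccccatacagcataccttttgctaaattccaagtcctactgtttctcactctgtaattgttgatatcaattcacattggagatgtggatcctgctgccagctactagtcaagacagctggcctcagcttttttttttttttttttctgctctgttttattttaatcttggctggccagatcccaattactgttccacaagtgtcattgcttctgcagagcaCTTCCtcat
Gp1ba (chr11:70638872-70639121, plus strand): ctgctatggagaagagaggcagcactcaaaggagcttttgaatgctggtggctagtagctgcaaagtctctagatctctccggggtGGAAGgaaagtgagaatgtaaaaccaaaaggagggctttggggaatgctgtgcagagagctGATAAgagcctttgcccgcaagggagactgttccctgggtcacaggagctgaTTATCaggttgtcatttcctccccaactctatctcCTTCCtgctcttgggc
The Mmrn1 window held 1 GATAA and 1 GGAAG match, the F13a1 window 1 and 2, and the Gp1ba window 2 of each. The Mmrn1 window lies inside the GENCODE span of the gene (chromosome 6, 60924976 to 60989378), since RefSeq starts the gene further downstream. Those of F5 and Pf4 held a single GGAAG match and no GATAA. Of 31 annotated starts of 28 matched members, 11 had GATAA (35.5%) and 26 had GGAAG (83.9%), against 22.6% and 64.1% of all 32851 windows of this length. TGATTNAT was in 2 member windows, those of Ppbp and Tbxas1, and in 2.82% of all. Matches of different motifs may share bases, and a match is a run of letters, not a shown binding site.

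Of the genes for granule cargo, Mmrn1 fell, Pf4 rose, and Ppbp, Vwf and Thbs1 did not pass the threshold. Mmrn1 encodes multimerin-1, a large protein of alpha granules that binds factor V. It had 49, 57 and 52 counts in WT and 13, 9 and 7 in NHD13, or 3.87, 4.24 and 3.62 CPM against 0.975, 0.626 and 0.484 CPM. The WT libraries were close together and every NHD13 library was far below them. The change was 5.61-fold (log2 -2.49, SE 0.28, adjusted p = 0.000796 by edgeR), the largest among the 28 tested members, and passed in all 16 other settings (log2 -2.80 to -2.29). Mmrn1 passed the low-count filter through the WT libraries, with 1 NHD13 library past the minimum. A fall was thus more readily seen than a rise. Mmrn1 and F5 were the 2 members that passed when the Y-linked share of each library was added as a covariate (edgeR adjusted p = 0.0291 and 0.00224). In that fit 2.38% of all tested genes passed, and the covariate shared 57.8% of its variance with the groups.

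Pf4 and Ppbp, neighbours on chromosome 5, encode the chemokines platelet factor 4 and pro-platelet basic protein, among the most abundant proteins of alpha granules. Pf4 was at 12.3, 8.12 and 9.27 CPM in WT and at 24.5, 26.7 and 13.6 CPM in NHD13. All NHD13 libraries were above all WT libraries, with replicate 3 close to the WT range. The rise was 2.18-fold (log2 1.13, SE 0.26, adjusted p = 0.0132 by edgeR). The edgeR adjusted p was 0.0684 and 0.0636 when WT replicates 2 and 3 were left out in turn, and 0.0590 and 0.0536 for NHD13 replicates 1 and 2, so that each of these ended the call, and with the covariate its log2 change was 0.30 (adjusted p = 0.415). Ppbp had 10, 5 and 6 counts in WT and 22, 13 and 11 in NHD13 (log2 1.06, SE 0.44, adjusted p = 0.102 by edgeR). These counts are low for a gene that platelets hold in great amount.

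Vwf, for von Willebrand factor, the ligand of the GPIb complex, was at 10.6 to 15.3 CPM in WT and 14.5 to 17.3 CPM in NHD13, and the groups overlapped in WT replicate 1. It did not pass (log2 0.35, SE 0.15, adjusted p = 0.116 by edgeR), but passed as higher when WT replicate 1 was left out (0.0378 by edgeR). Endothelial cells also make this protein. Their 7 markers summed to 4.11 to 6.11 CPM in WT and 4.65 to 6.40 CPM in NHD13, most of it Plvap (3.49 and 5.19 CPM on average). The rest were too low for the main test. Cdh5, Robo4 and Cldn5 had 9, 14 and 1 counts in WT and 0 in NHD13. Kdr and Stab2 had 12 each in WT and 4 and 2 in NHD13, whereas Flt4 had 7 in WT and 9 in NHD13. Thbs1, for thrombospondin-1, varied more among replicates than between groups, with 7.75, 21.4 and 15.8 CPM in WT and 6.38, 7.37 and 21.4 CPM in NHD13 (log2 -0.35, SE 0.48).

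Genes of the machinery that forms and releases granules, and of proplatelet tubulin, gave 1 fall in 3 tested. Plek encodes pleckstrin, a main target of protein kinase C in platelets that is also made in leukocytes. It was at 75.6, 98.6 and 90.0 CPM in WT and at 53.1, 50.4 and 43.6 CPM in NHD13, without overlap (1.80-fold lower, log2 -0.85, SE 0.11, adjusted p = 0.00170 by edgeR). Nbeal2, the gene mutated in gray platelet syndrome and needed for alpha granules, was at 156 CPM ± 21.0 and 142 CPM ± 13.6 and did not pass (log2 -0.14, SE 0.11, adjusted p = 0.349 by edgeR). Rab27b, for a small GTPase of dense granule release, was lower in every NHD13 library, at 2.21 to 3.30 CPM against 3.76 to 5.69 CPM. It missed the threshold (adjusted p = 0.0933), and passed when NHD13 replicate 1 was left out (0.0397 by edgeR), where 48.7% of all tested genes passed. Tubb1, the tubulin of the platelet ring, had 13 counts over the WT libraries and 18 over the NHD13 libraries, a ratio of 1.33 with an exact 95% counting interval of 0.615 to 2.95.

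None of the 4 genes of the GPIb-IX-V complex, the platelet receptor for von Willebrand factor, passed the threshold. All 4 estimates were above 0, from a log2 change of 0.08 for Gp5 to 0.69 for Gp1ba. Gp1ba, for the chain that binds the ligand, was at 2.53, 2.98 and 3.14 CPM in WT and at 3.30, 5.15 and 5.46 CPM in NHD13. The groups did not overlap, and the adjusted p was 0.0568 (edgeR). It passed without NHD13 replicate 1, with a log2 change of 0.88 (adjusted p = 0.00309 by edgeR), in a fit where 48.7% of all tested genes passed. Gp9 and Gp5, for partner chains, lay at 2.79 to 3.72 and 8.08 to 8.62 CPM in WT and at 3.38 to 4.24 and 7.35 to 11.1 CPM in NHD13, overlapping in both cases. Gp1bb, at 0.791 to 2.38 CPM in WT and 1.39 to 2.03 CPM in NHD13, is uncertain, since 92.9% of its exon bases overlap exons of other genes, Sept5 among them. The sign of Gp1bb turned without WT replicate 1, and that of Gp5 without NHD13 replicate 2.

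Of the other surface receptors, Cd9 fell and Clec1b, Treml1 and Tbxa2r did not pass. Cd9 encodes a tetraspanin that is abundant on platelets and also found on other blood cells. It was at 117, 166 and 143 CPM in WT and at 91.4, 104 and 91.7 CPM in NHD13, without overlap (1.48-fold lower, log2 -0.57, SE 0.12, adjusted p = 0.0102 by edgeR). Basophil and mast cell markers summed to 422 to 724 CPM in WT and 93.2 to 146 CPM in NHD13, and 6 of 6 tested fell. Eosinophil markers summed to 1117 to 1553 CPM in WT and 166 to 429 CPM in NHD13, and 6 of 7 tested fell. None of these 14 markers was at 0 in both groups, and their part in the fall of Cd9 was not tested.

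Levels of the other 5 receptors of this group were low. Clec1b, for the podoplanin receptor CLEC-2, was at 0.670 to 0.906 CPM in WT and 0.375 to 0.765 CPM in NHD13 (log2 -0.46, SE 0.36). Treml1, for a receptor stored in alpha granules, was at 1.04 to 1.90 and 0.974 to 1.95 CPM, and Tbxa2r, for the thromboxane receptor, at 0.791 to 1.95 and 0.553 to 1.53 CPM. Gp6, for the collagen receptor GPVI, had 0 counts in WT and 1 in NHD13. P2ry12, for the ADP receptor that clopidogrel blocks, had 3, 1 and 9 counts in WT and 0 in each NHD13 library, and 9 of the 13 WT counts came from replicate 3. It was too low for the main test. At this depth no difference was detectable for Clec1b, Treml1, Tbxa2r and Gp6.

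The 3 thrombin receptor genes did not move together. These receptors are cut by thrombin, which exposes a tethered ligand, and mouse platelets are known to use the products of F2rl2 (PAR3) and F2rl3 (PAR4) rather than that of F2r (PAR1). F2r was at 17.0, 18.5 and 15.3 CPM in WT and at 28.1, 29.2 and 25.7 CPM in NHD13, with tight replicates and no overlap. It rose 1.63-fold (log2 0.71, SE 0.10, adjusted p = 0.00260 by edgeR). F2rl3 was at 5.22, 5.51 and 4.18 CPM in WT and at 3.0, 3.20 and 2.56 CPM in NHD13, 1.70-fold lower without overlap (log2 -0.76, SE 0.20, adjusted p = 0.0202 by edgeR). Leaving out WT replicate 1, WT replicate 2 or NHD13 replicate 3 ended the call for F2rl3, at 0.0515, 0.0782 and 0.0754 (edgeR). F2rl2, which lies near F2r on chromosome 13, was at 2.16 to 3.56 and 1.17 to 2.55 CPM and did not pass (log2 -0.38, SE 0.33).

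In thromboxane synthesis the 2 enzymes differed in their values. Ptgs1 encodes cyclooxygenase-1, the target of aspirin, and was at 114, 110 and 108 CPM in WT and 124, 110 and 97.4 CPM in NHD13. The means were 110 CPM in both groups (log2 SE 0.09, adjusted p = 0.995 by edgeR). Tbxas1 encodes thromboxane A synthase, the enzyme of the next step, and was at 16.0, 17.5 and 17.4 CPM in WT and 9.15, 7.16 and 6.98 CPM in NHD13. It fell 2.19-fold (log2 -1.13, SE 0.14, adjusted p = 0.00111 by edgeR), with all NHD13 libraries well below WT. Monocytes and macrophages express Tbxas1 too, and their markers fell as given for F13a1, a link that was not tested. The difference between the changes of the 2 genes was not tested.

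Both tested genes of intracellular signalling fell from low levels. Mylk, for myosin light chain kinase, had 28, 27 and 29 counts in WT and 14, 4 and 4 in NHD13, so that NHD13 replicate 1 was nearest to WT. The change was 3.92-fold (log2 -1.97, SE 0.44, adjusted p = 0.0120 by edgeR), and it missed the threshold when NHD13 replicate 2 was left out (0.0502 by edgeR). Gucy1a3, for the alpha chain of soluble guanylate cyclase, the receptor by which nitric oxide restrains platelets, had 16, 22 and 25 counts in WT and 9, 9 and 6 in NHD13. It fell 2.70-fold (log2 -1.43, SE 0.31, adjusted p = 0.0104 by edgeR), and did not pass without WT replicate 3 (0.0523 by edgeR). Gnaz, for a G protein alpha subunit of platelets, had 10 counts in WT and 8 in NHD13.

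**Figure D3:**
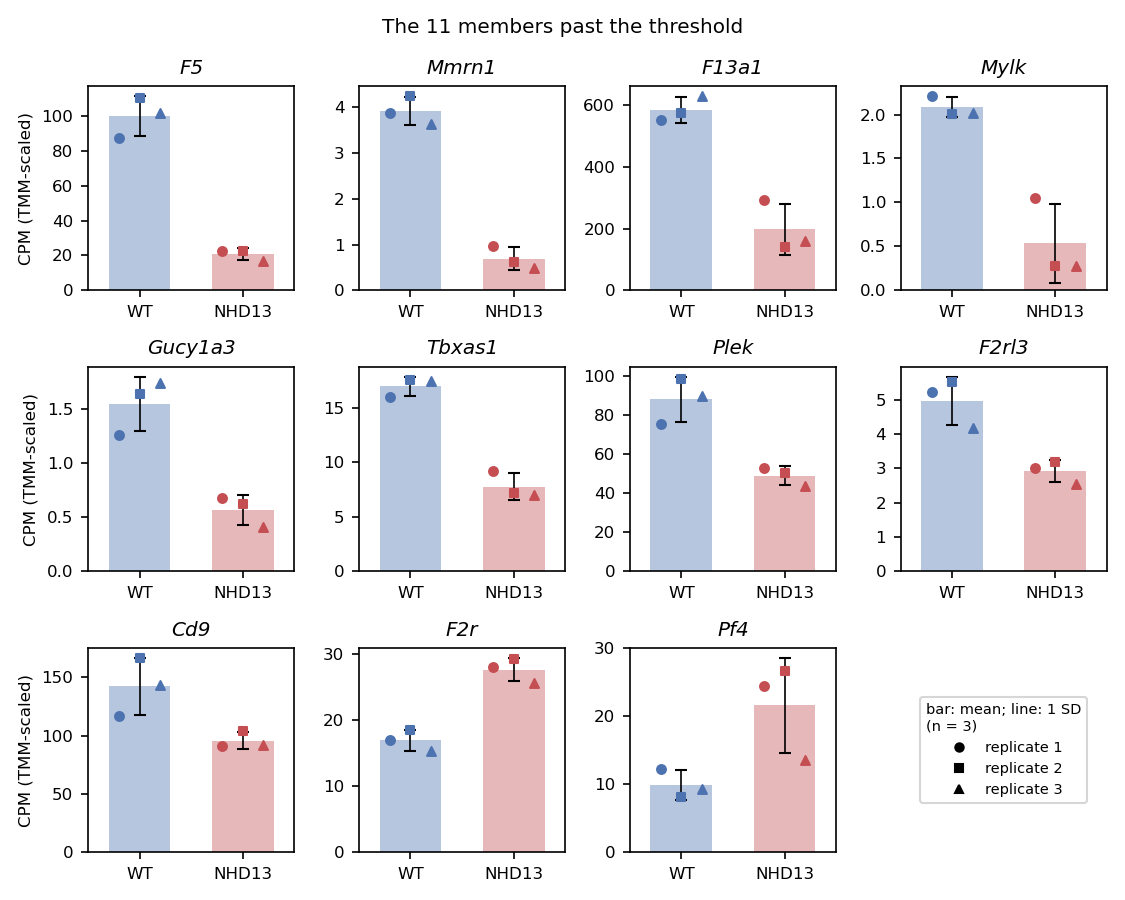
Level in CPM of the 11 members past the threshold, with 1 marker per library, the mean as a bar and 1 SD as a line (n = 3 per group, axes from 0). In none of the 11 do the groups overlap, and for F13a1 and Mylk NHD13 replicate 1 stands above the other NHD13 libraries.

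Of the 11 members past the threshold, 7 were past it whichever single library was left out, namely F5, Mmrn1, F13a1, Tbxas1, Plek, Cd9 and F2r. Of these, Mmrn1 passed the low-count filter through the WT libraries. The matching share of all called genes is not given here, so this count does not set the members apart from other called genes. Calls gained or lost in these fits stand beside large shifts over all genes. The share of all tested genes past the threshold, 30.3% with every library, was 48.7% without NHD13 replicate 1. It was 23.1% without WT replicate 1, 14.7% without WT replicate 2 or 3, and 15.0% and 15.9% without NHD13 replicates 2 and 3. With the Y-linked covariate the calls of F13a1, Mylk, Gucy1a3, Tbxas1, Plek, F2rl3, Cd9, F2r and Pf4 were lost. For F13a1, Tbxas1 and Plek, 99.6%, 98.8% and 93.3% of the log2 change was left in that fit, whereas the SE of F13a1 went from 0.24 to 0.40. The share left was 127% for F2rl3, 114% for Mylk, 96% for Gucy1a3, 85.9% for F2r, 75.3% for Cd9 and 26.3% for Pf4. Pf4 was the called member whose estimate moved most, and the SE of each of the others was larger in that fit.

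**Figure D4:**
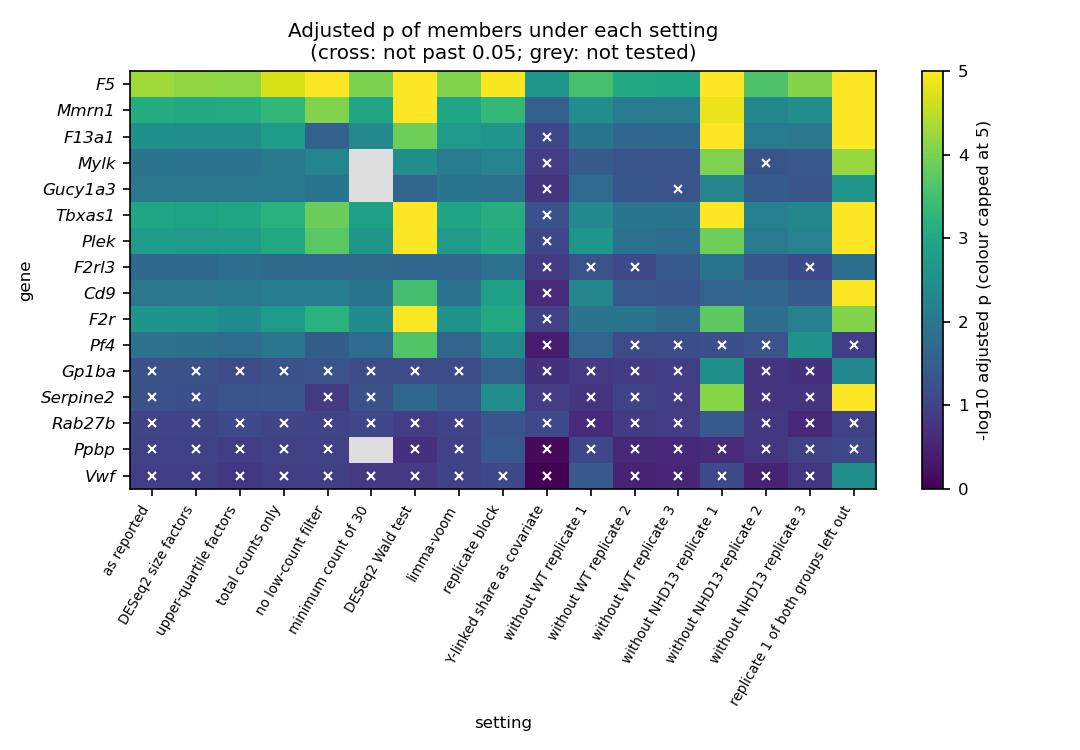
Adjusted p of the 11 members past the threshold and of Gp1ba, Serpine2, Rab27b, Ppbp and Vwf, as reported and in each of the 16 other settings, as colour on a -log10 scale, with a cross where 0.05 was not passed and grey where the gene was not tested. F5 and Mmrn1 have no cross, and the column with the Y-linked covariate has crosses for all others shown.

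Levels of the members within a group were compared per kilobase of merged exon (GENCODE vM21). In WT, F13a1 (86.8 CPM per kb ± 6.11) and Cd9 (69.5 ± 12) were highest, followed by Ptgs1 (28.4 ± 0.754), Plek (19.6 ± 2.60), F10 (16.5 ± 0.135), Nbeal2 (16.4 ± 2.2), Pf4 (13.7 ± 3.02) and F5 (13.4 ± 1.57). Each step between neighbours in this order from F10 to F5 lies within the spread over the 3 libraries, whereas F10 and F5 themselves are further apart than the SD of either. In NHD13, Cd9 (46.9 ± 3.61) was highest, and Pf4 (30 ± 9.73), F13a1 (29.4 ± 12.2) and Ptgs1 (28.4 ± 3.45) did not differ beyond their spread. F5 went from rank 8 of 32 to rank 12, and Pf4 from rank 7 to rank 2. Gp6, P2ry12, Gnaz, Mylk, Clec1b and Gucy1a3 were the 6 lowest in both groups, in differing order.

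The wider platelet and clotting programme was read from 7 further lists, which together had 127 tested genes. Of these, 42 fell and 8 rose, with a median log2 change of -0.22, and 39.4% passed. Over all genes the median was 0.00 and 30.3% passed, 15.3% as lower and 15.0% as higher. The falls in the lists numbered 67 without NHD13 replicate 1, where 48.7% of all genes passed. They numbered 21 and 23 without WT replicate 2 or 3 (14.7% of all genes in each fit), 25 without NHD13 replicate 2 (15.0%), 24 without NHD13 replicate 3 (15.9%) and 9 with the Y-linked covariate (2.38%). The lists' counts thus moved with those of all genes. Other genes of coagulation and fibrinolysis gave 7 falls and no rise in 13 tested (median -0.39), or 53.8% against 30.3% of all genes, with 6 to 9 falls when any library was left out and 3 with the covariate. They included Pros1, for the anticoagulant protein S (3.81-fold lower, 7.98 to 2.09 CPM), and Tfpi, the inhibitor of the tissue factor pathway (2.57-fold lower, 32.5 to 12.7 CPM). S100a10 and Anxa2, which form a plasminogen receptor, fell 2.52-fold and 1.79-fold.

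Other genes of eicosanoids and of nitric oxide and cGMP gave 9 falls and no rise in 20 tested (median -0.38), or 45% against 30.3% of all genes. Among the 9 is Gucy1b3, at 0.348 to 0.484 CPM in NHD13, with every NHD13 library below the filter's cutoff of 0.718 CPM. It was tested only because of its WT level, so only a fall could be called. Leaving out WT replicate 2 gave 3 falls, leaving out replicate 3 of either group or replicate 2 of NHD13 gave 5, and the covariate gave 2. Ptger3, for a prostaglandin E2 receptor of platelets, fell 4.70-fold and Pde5a, for the phosphodiesterase that breaks down cGMP, 2.27-fold. Alox15 and Alox5ap fell 4.43-fold and 1.45-fold. The eosinophil markers given for Cd9 fell beside Alox15, a gene of eosinophils, and this link was not tested.

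Of 15 tested platelet integrins and adhesion genes 5 fell and none rose (median -0.18), and 33.3% called is near the 30.3% of all genes. Among the 5 is Itga2, at 0 to 0.484 CPM in NHD13, with every NHD13 library below the filter's cutoff of 0.718 CPM. It was tested only because of its WT level, so only a fall could be called. The falls were 3 without WT replicate 2, 2 without WT replicate 3 and 1 with the covariate, and there were 9 falls and 2 rises without NHD13 replicate 1. Itga2b, for the integrin chain CD41 that marks megakaryocytes and early progenitors, fell 2.08-fold, from 43.4 CPM ± 6.04 to 20.9 CPM ± 1.92, and its partner Itgb3 1.47-fold. Pecam1 and Rap1b fell 2.34-fold and 1.26-fold. Activation signalling gave 9 falls and 3 rises in 22 tested (median -0.36), or 54.5% against 30.3% of all genes. Leaving out replicate 1 gave 15 falls for NHD13 and 6 for WT, leaving out replicate 2 of either group or replicate 3 of NHD13 gave 4, replicate 3 of WT gave 5, and the covariate gave 0. P2ry1, for the other ADP receptor of platelets, rose 2.02-fold, from 22.9 CPM ± 1.56 to 46.2 CPM ± 8.26, and Rgs10 rose 1.64-fold, while Rgs18 and Fcer1g fell 1.32-fold and 1.68-fold.

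The list of megakaryocyte transcription factors and signalling genes gave 4 rises and 4 falls in 17 tested (median -0.09), or 47.1% against 30.3% of all genes. There were 4 rises and 1 fall when replicate 2 or 3 of either group was left out, 5 rises and 7 falls when NHD13 replicate 1 was, and 2 rises and 0 falls in the covariate fit. Zfpm1, Gata1 and Gfi1b, which serve megakaryocytes and red cells alike, rose 2.64-fold, 2.23-fold and 2.41-fold, and Meis1 fell 2.81-fold. Erythroid markers moved with the 3 factors that rose. Their sum was 1006 to 1136 CPM in WT and 1176 to 2102 CPM in NHD13, and 4 of 7 tested rose, with Hbb-b1 at 4 and 2 counts, and their part was not tested.

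Genes of granule formation and secretion gave 5 falls and no rise in 24 tested (median -0.12), and 20.8% called is below the 30.3% of all genes. The falls were 11 without NHD13 replicate 1 and 2 when any other library was left out. Slc35d3, a dense granule gene, went from 2.69 to 0.425 CPM and Clu, for clusterin, from 1.79 to 0.167 CPM. All NHD13 libraries of both genes lay below the filter's cutoff of 0.718 CPM, so that they were tested only because of their WT level and only a fall could be called. Hps5 and Hps3 fell by 0.25 and 0.26 on the log2 scale. Genes of the proplatelet cytoskeleton gave 3 falls and 1 rise in 16 tested (median -0.14), and 25% called is below the share of all genes. The falls were 7 without NHD13 replicate 1, and 2 without any other library except WT replicate 1. Tpm4 fell 3.71-fold, from 67.5 CPM ± 7.85 to 18.2 CPM ± 5.43, Tmsb4x 1.39-fold and Flna 1.20-fold, and Tpm1 rose 1.49-fold. The genes named from the lists were picked by p-value in these same libraries, which favours passing again when a library is left out. The matching share over all called genes is not given here. Of the 28 genes named from the lists by their p-value, 22 passed whichever library was left out and 12 with the Y-linked covariate. The exceptions to the former were Rap1b (lost without WT replicate 3), Alox15 (WT replicate 2), Itgb3 (WT replicate 2 or 3, or NHD13 replicate 3), Flna (WT replicate 2 or 3, or NHD13 replicate 2 or 3), and Hps3 and Hps5, for which, of the 6 libraries left out in turn, NHD13 replicate 1 alone left the call in place.

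**Figure D5:**
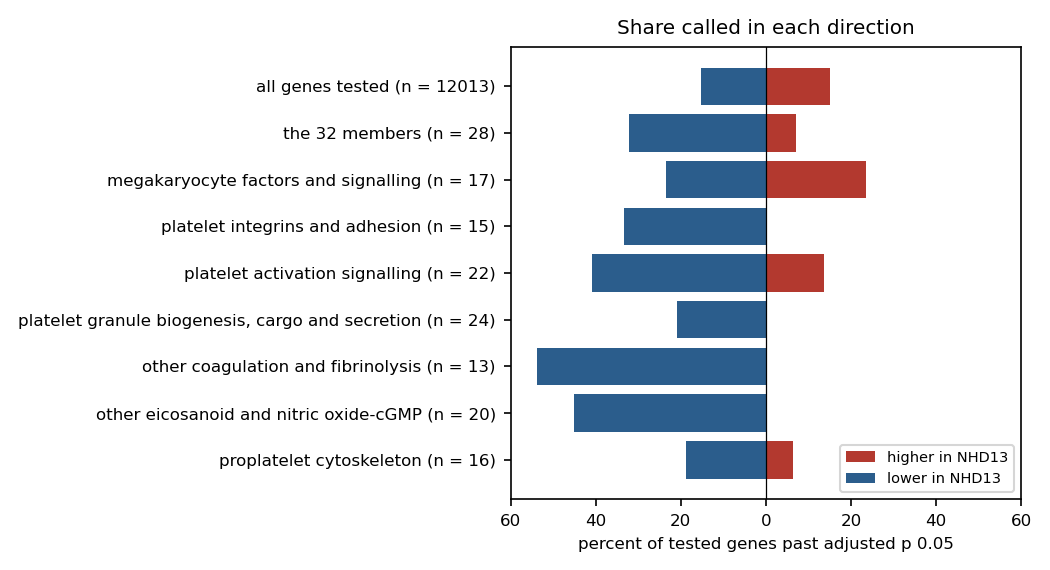
Percent of tested genes past the threshold as higher (right) and lower (left) in NHD13, for all genes, the 28 tested members and the 7 further lists, with the number tested in brackets. All genes show equal bars to within a point (15.0% and 15.3%), and coagulation, eicosanoid, integrin and granule lists have no bar on the right.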

How the data were processed

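RNA of sorted marrow cells was measured in 3 WT and 3 NHD13 libraries. The deposited table holds whole-number counts per gene, not normalized. The submitters' processing notes name HTSeq 0.5.4p3, Bowtie2 2.2.1 and mm10. No source used here gives the annotation, strand setting or read filters, so reads of genes that overlap, on either strand, may be shared. Columns were matched to samples by group initial and replicate number.

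After filterByExpr (minimum count 10, which kept 12013 of 17523 genes), counts were scaled by TMM and tested with the quasi-likelihood F test of edgeR 4.0.16 (robust) in R 4.3.3, with the group as the term, two-sided, adjusted over all genes tested (threshold 0.05). An SE is the size of the log2 change over the square root of its F. CPM uses TMM library sizes, with the mean and SD over 3 libraries. Alternatives used DESeq2 1.42.0 and limma 3.58.1 and are described in the closing section. Replicates were compared by chi-square. The ratio to its degrees of freedom was at least 3.23 for every pair, above sampling noise, so all 6 were kept. For NHD13 replicate 1 the ratio was 18.5 with WT replicate 1, below the 25.6 and 25.3 with NHD13 replicates 2 and 3. With WT replicates 2 and 3 it was 39.1 and 32.1. Positions and exon lengths come from GENCODE vM21, matched by symbol (Gucy1a3 by its newer one), and promoters from RefSeq for 28 members.

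The members, the 7 pathway lists and the 10 marker lists were chosen with earlier results of these data known. Every member was described. From each pathway list the 4 genes past the threshold with the lowest p were named. No list was tested as a set, and some listed genes are not reported by name here. T-lymphoid markers summed to 2.57 to 4.05 CPM, B-lymphoid to 11.5 to 24.5 CPM and stromal to 12.6 to 20.9 CPM per library, and of these Cd79b fell.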

Additional observations from a re-analysis of the deposited data

How the results depend on the processing

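DESeq2 size factors, upper-quartile factors, total counts, no low-count filter, a minimum count of 30, DESeq2, limma-voom, the replicate number as a block, the Y-linked share as a covariate, each library left out in turn, and replicate 1 of both groups left out gave 16 settings. The number of lower members was 7 to 11 in all but the covariate fit, where it was 2 (against 9). It ran from 8 to 11 with a library left out. The number of higher members was 2, and went to 4 in the replicate block (Gp1ba and Ppbp added), to 0 with the covariate, and from 1 to 3 with a library left out. Signs turned in estimates that did not pass in either fit. With the covariate the log2 change was -0.00636 for F10, -0.16 for Gp5, -0.00584 for Vwf and 1.13 for Thbs1. With replicate 1 of both groups left out it was -0.0276 for F10 and -0.20 for Gp1bb, and without the low-count filter 0.0031 for Ptgs1. With single libraries left out it ran from -0.0289 to 0.232 for F10, -0.642 to 0.0237 for F7, -0.12 to 0.640 for Gp1bb, -0.13 to 0.202 for Gp5, -0.0890 to 0.0732 for Ptgs1 and -0.410 to 0.195 for Treml1. Nbeal2 passed with replicate 1 of both groups left out. The share of all tested genes past the threshold was 30.3%, and 48.7% without NHD13 replicate 1, 14.7% without WT replicate 2 or 3, 15.0% without NHD13 replicate 2, 15.9% without NHD13 replicate 3, 53.3% with replicate 1 of both groups left out and 2.38% with the covariate. The cause was not tested. Upper-quartile scaling moved the higher share of all calls from 49.5% to 40.1% and the median of all genes to -0.04.

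Same-numbered libraries had correlated deviations of 0.249, 0.0632 and 0.175. Every library correlated best with its own number except NHD13 replicate 2, at 0.149 with WT replicate 3. The labels state no batch, so the main fit had no block, and whether the numbers pair the samples was not settled. With the replicate block 11 members were lower and 4 higher, and 35.3% of all genes passed. In this block Serpine2 (adjusted p = 0.00352), Rab27b (0.0487), Gp1ba (0.0289) and Ppbp (0.0439) passed by edgeR. At these depths members under about 1 CPM, such as Clec1b, F7 and Ppbp, carry 5 to 22 counts per library, which limits what could be seen.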

Other observations

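The call for Serpine2 turned on the settings, and it passed in 7 of 16. As reported its adjusted p was 0.0569 (edgeR), and it passed as lower under upper-quartile factors (0.0496), total counts (0.0461), limma-voom (0.0391) and DESeq2 (0.0213). P2ry12, set aside by the low-count filter, had an adjusted p of 0.0336 without that filter (edgeR), where 9 of its 13 WT counts came from replicate 3.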
